A study of Mus musculus with 10 samples.

Results

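The endothelin system of the mouse aorta was followed through its peptide ligands (Edn1, Edn2 and Edn3), its receptors (Ednra and Ednrb) and its converting enzymes (Ece1 and Ece2), in wild type mice and in mice lacking Ptgds, which encodes L-PGDS, an enzyme that makes prostaglandin D2. Members were all probe sets whose gene symbol in the platform annotation was 1 of these 7 names. This gave 14 of the 45101 probe sets, for 6 of the 7 genes: 1 for Edn1, 1 for Edn2, 4 for Edn3, 3 for Ednrb, 3 for Ece1 and 2 for Ece2. No probe set carried the symbol Ednra in the annotation used here, so the receptor through which endothelin-1 contracts smooth muscle was not analysed here.

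Total RNA of whole aorta from male C57BL/6 mice on a chow diet was hybridised to 1-colour Affymetrix arrays. Wild type aortas gave 4 arrays (replicates 1, 3, 4 and 5, since replicate 2 was excluded by the submitters and has no values), and Ptgds-/- aortas gave 5 arrays (replicates 1 to 5), all labelled biological replicates. The labels give no age, no treatment, no substrain, no stretch of aorta and no batch, and do not say whether the deletion reaches every tissue or whether an array held RNA of more than 1 animal. A whole aorta holds endothelium, smooth muscle, adventitia and attached fat or nerve, so fewer cells of a type and less RNA per cell cannot be told apart.

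Endothelins are short peptides with a pair of disulfide bridges. They are cut from larger precursors, first by furin-type proteases and then by the membrane metalloproteases endothelin-converting enzyme 1 and 2. In arteries the endothelium makes endothelin-1, which acts on the ETA receptor of smooth muscle to constrict. The ETB receptor, encoded by Ednrb, sits on endothelium, where it releases nitric oxide and clears endothelin-1, and on some smooth muscle, glia and neural crest derivatives.

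Ptgds on probe set 1423859_a_at lay between 8.68 and 10.31 on the wild type arrays and between 3.67 and 4.40 on the knockout arrays (log2 values, limma adjusted p = 0.000603). The dimmer Ptgds probe set 1423860_at lay between 4.87 and 6.97 and between 3.92 and 4.35, a change of −1.80 that did not pass (limma adjusted p = 0.0892). Array medians lay between 5.88 and 5.97, and 70.1% to 71.4% of probe sets exceeded a log2 value of 4, the floor used for testing. Wild type replicate 3 stood apart, with a mean correlation of 0.983 with the other arrays against 0.990 to 0.992 for the rest. That array held the most transcript of sympathetic neurons: the mean of 6 tested markers (among them Th, Dbh and Stmn2) was 11.22, while the other wild type arrays lay from 4.56 to 7.74 and the knockout arrays from 4.64 to 9.31. Knockout replicate 3 alone held much skeletal muscle transcript, with a marker mean of 9.71 against 4.60 to 5.17 elsewhere. Smooth muscle markers, with Acta2, Myh11 and Tagln at their head, were present on every array, with list means of 12.09 to 12.33. Member values that moved by over 1.5 times without wild type replicate 3 are given with and without it.

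Of the 14 probe sets, 11 exceeded the floor on at least 4 arrays and were tested among 26504 named probe sets. In the knockout 8 lay lower and 3 higher, and 0 of the 11 passed an adjusted p of 0.05 (limma, Benjamini-Hochberg over all 26504), where 0.0792% of all tested probe sets passed. At an unadjusted p under 0.05 there were again 0 of 11, against 18.9% of all tested probe sets. Wild type and knockout values overlapped for all 11, while 6.42% of all tested probe sets had groups that did not overlap. The median change of the 11 was −0.268 (log2, knockout minus wild type) beside 0.0108 over all tested probe sets, and 47.3% of those lay lower in the knockout. The median of the 11 was −0.140 without wild type replicate 3, with 9 lower and 2 higher, and without wild type replicate 5 it was −0.146, with 7 lower and 4 higher. Probe sets of 1 gene share that gene and its RNA, so these are not 11 separate readings.

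**Figure D1:**
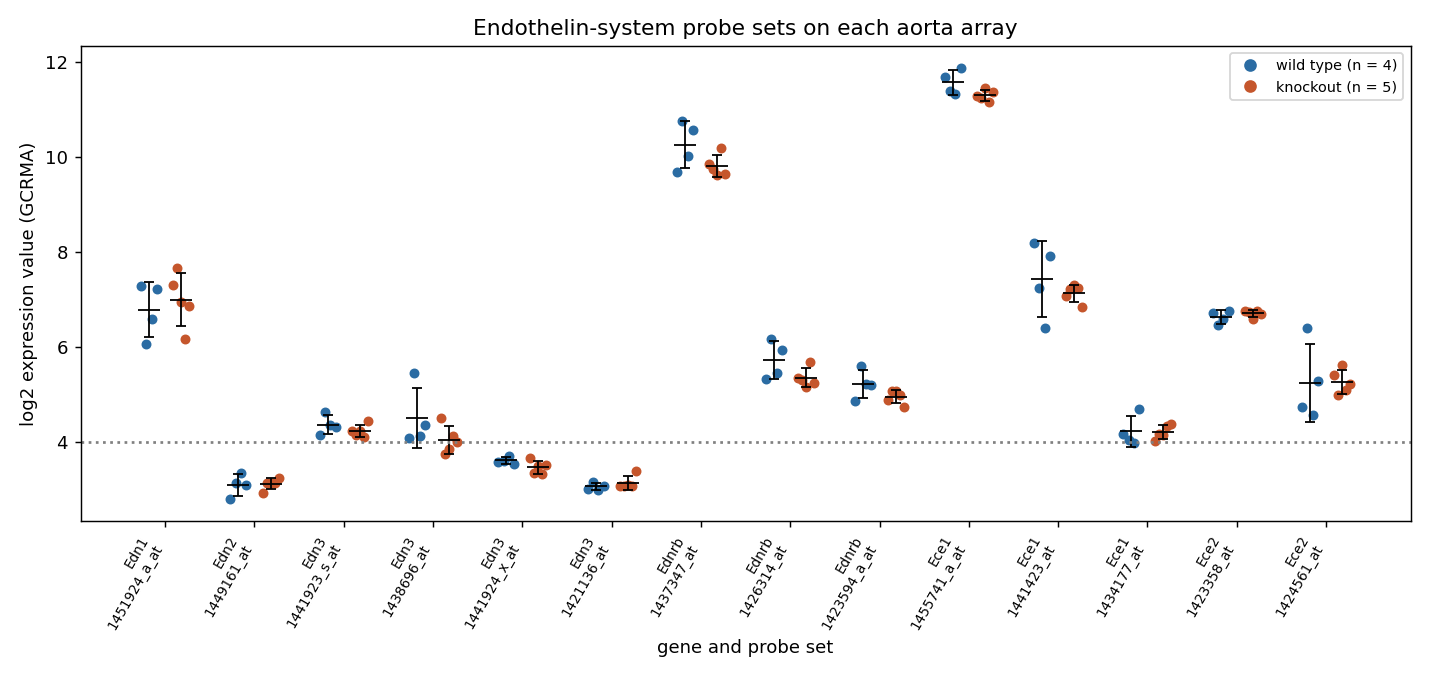
Log2 expression value (vertical axis) of each of the 14 probe sets (horizontal axis) on every array, blue for the 4 wild type and orange for the 5 knockout arrays. Black bars give the mean ± SD of a group and the dotted line the floor of 4. All groups overlap, and the 3 probe sets of Ednrb have their highest value on a wild type array.

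Edn1, the precursor gene of endothelin-1, stood at 7.28, 6.06, 6.59 and 7.23 on wild type replicates 1, 3, 4 and 5 (probe set 1451924_a_at). On knockout replicates 1 to 5 it stood at 7.32, 7.67, 6.96, 6.18 and 6.87. Low and high arrays occurred in both genotypes: wild type replicate 3 and knockout replicate 4 were lowest, and knockout replicate 2 was highest. The means were 6.79 ± 0.58 (SD, n = 4) and 6.998 ± 0.56 (SD, n = 5). The change of 0.21 (SE 0.33, limma adjusted p = 0.768) was smaller than the spread within either group, and its 95% interval ran from −0.54 to 0.95. Without wild type replicate 3 the change was −0.036 (adjusted p = 0.970), so even the sign rests on that array.

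The start of Edn1 is shown because its letters hold motifs of factors whose own transcripts were on these arrays. GATA2 and AP-1 (dimers of Jun and Fos proteins) are known from work on the human gene to drive endothelin-1 transcription. The letters AGATAA for GATA factors, the letters TGANTCA for AP-1, the letters TGACTAA for the AP-1 variant of the endothelin-1 gene, the core ACGTG of a hypoxia element and the letters ACAAAG for SOX factors were searched on both strands of the RefSeq window from 250 bases before to 50 bases after the annotated start, in GRCm38.p6. The window of Edn1 held AGATAA, read on the opposite strand, from base 9, ACGTG, likewise reversed, from base 22, and TGACTAA from base 37, with the annotated start counted as base 1. Each site is given on the strand of the gene with the motif in capitals, the GATA letters at chr13:42301478-42301496 and the AP-1 variant at chr13:42301506-42301524, both on the plus strand.
Edn1 GATA letters: cgggtcTTATCTctggctg
Edn1 AP-1 variant letters: tgtgggTGACTAAtcacac
Among all 32851 RefSeq windows of this length AGATAA occurred in 11.2%, TGACTAA in 2.35% and ACGTG in 19.6%, and the letters of the common AP-1 motif and of the SOX motif were not in the window of Edn1. The letters TGACTAA were searched because they are known from the endothelin-1 gene, so their share of 2.35% does not make this match a finding. A match describes letters and not a bound site.

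The transcripts of these regulators differed by less than the test could call. Gata2 averaged 9.61 ± 0.52 (SD, n = 4) on wild type against 9.22 ± 0.18 (SD, n = 5) on knockout arrays, a change of −0.38 (SE 0.22, limma adjusted p = 0.368), and of −0.17 (adjusted p = 0.663) without wild type replicate 3. Jun stood at −0.011 (SE 0.12) and Fos at −0.12 (SE 0.46), and both signs turned without that array (0.046 and 0.084). Of 12 genes listed as regulators of Edn1 transcription 11 were tested, 4 higher and 7 lower, where 56.7% of 14321 tested genes lay higher; their median was −0.0152, which turned to 0.0153 without wild type replicate 5 and to 0.0065 without knockout replicate 1. None passed an adjusted p of 0.05 in limma, as 0.0628% of genes did, and 1 had an unadjusted p under 0.05, where 19.1% of genes did: Smad3, a transducer of TGF-β signals, at 0.25 (SE 0.099, adjusted p = 0.229). Tgfb1, next by p after Smad3 and Gata2, stood at −0.13 (SE 0.13).

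The other ligands were dim. Edn2 lay between 2.80 and 3.35 on the wild type and between 2.94 and 3.25 on the knockout arrays, under the floor on all 9, and was not tested. Edn3, the ligand that with Ednrb guides enteric neurons and melanocytes from the neural crest, was under the floor on all arrays for probe sets 1421136_at (2.996 to 3.40) and 1441924_x_at (3.33 to 3.71). Its probe set 1441923_s_at read 4.37 ± 0.19 (SD, n = 4) and 4.24 ± 0.13 (SD, n = 5), a change of −0.13 (SE 0.10, limma adjusted p = 0.521), and of −0.044 (adjusted p = 0.850) without wild type replicate 3. Values this close to the floor give no reliable size of a difference.

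Probe set 1438696_at of Edn3 stood at 4.09, 5.45, 4.14 and 4.36 on wild type replicates 1, 3, 4 and 5 and at 4.52, 3.76, 3.85, 4.13 and 4.01 on knockout replicates 1 to 5. The 2 highest arrays, wild type replicate 3 and knockout replicate 1, were also the 2 highest for sympathetic neuron markers, at 11.22 and 9.31. The orders parted below these: wild type replicate 5, next highest at 4.36, had the lowest mean of these markers (4.56). Wild type replicate 4, next for these markers at 7.74, read 4.14. The part of nerve in this reading was not tested. The change was −0.46 (SE 0.28, limma adjusted p = 0.399) with all arrays and −0.15 (SE 0.17, adjusted p = 0.713) without wild type replicate 3.

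Ednrb, the gene of the ETB receptor, had 3 probe sets that all lay lower in the knockout mean. The brightest, 1437347_at, stood at 9.70, 10.77, 10.02 and 10.58 on wild type replicates 1, 3, 4 and 5. On knockout replicates 1 to 5 it stood at 9.86, 9.76, 9.62, 10.20 and 9.64. Wild type replicates 3 and 5 lay above every knockout array, while wild type replicate 1 lay among the lower knockout values. The means were 10.27 ± 0.50 (SD, n = 4) and 9.82 ± 0.24 (SD, n = 5), and the change was −0.45 (SE 0.22), or 1.37-fold lower. It did not pass (limma adjusted p = 0.300), and its 95% interval ran from −0.95 to 0.04.

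The dimmer Ednrb probe sets gave similar changes. Probe set 1426314_at stood at 5.33, 6.17, 5.46 and 5.95 for wild type and at 5.35, 5.31, 5.17, 5.69 and 5.25 on the knockout arrays, in the order of replicates above. Its change was −0.37 (SE 0.18, limma adjusted p = 0.306), and over the 9 arrays it followed 1437347_at with a Pearson r of 0.992 (Spearman rho 0.983), which describes 2 readings of the same RNA. Probe set 1423594_a_at differed by −0.27 (SE 0.14, limma adjusted p = 0.331) and followed the brightest with an r of 0.794. Wild type replicate 3 was highest for all 3 probe sets, and wild type replicate 5 second for the brighter pair.

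Leaving out wild type replicate 3 shrank the Ednrb differences by over 1.5 times. Without it the changes of 1437347_at, 1426314_at and 1423594_a_at were −0.29, −0.22 and −0.14, with adjusted p-values (limma) of 0.544, 0.557 and 0.595. Without wild type replicate 1 they were −0.64, −0.50 and −0.39, with adjusted p-values of 0.0860, 0.122 and 0.0969. Without any 1 array the direction held and 0 of the 3 passed.

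**Figure D2:**
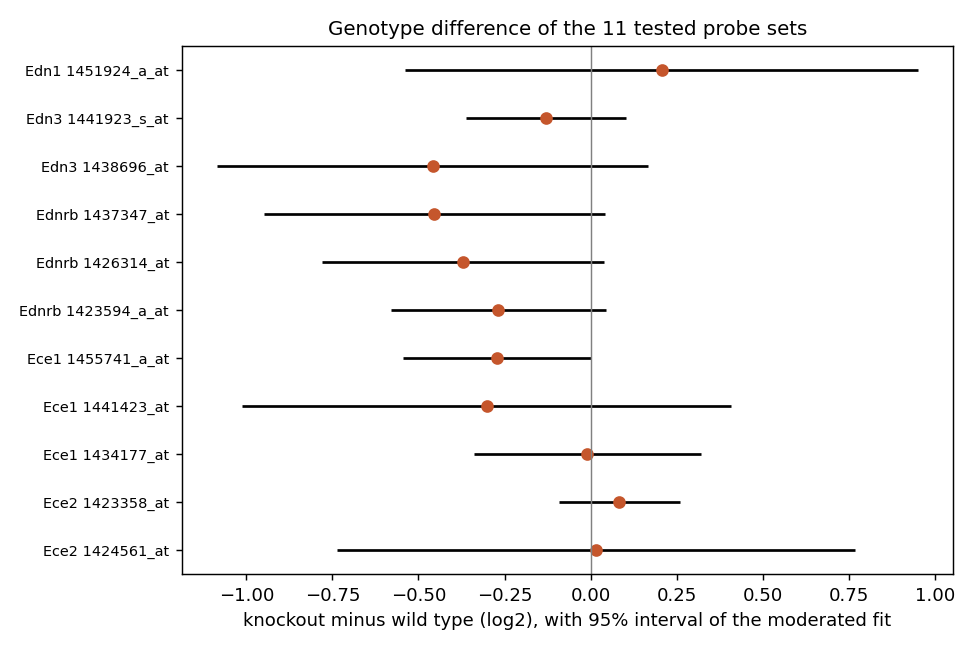
Knockout minus wild type difference (horizontal axis, log2) of the 11 tested probe sets (vertical axis), as points with the 95% interval of the moderated fit. Every interval includes 0; those of Ece1 1455741_a_at (upper end 0.002) and of the Ednrb probe sets (upper ends 0.039 to 0.045) reach just past it.

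Ece1 encodes the main enzyme that turns big endothelin-1 into the active peptide. Its brightest probe set, 1455741_a_at, stood at 11.69, 11.39, 11.33 and 11.89 on wild type replicates 1, 3, 4 and 5 and at 11.29, 11.25, 11.45, 11.16 and 11.37 on knockout replicates 1 to 5. Wild type replicates 1 and 5 lay above all knockout arrays, and the other wild type arrays lay within the knockout range. The means were 11.57 ± 0.27 (SD, n = 4) and 11.30 ± 0.11 (SD, n = 5). The change of −0.27 (SE 0.12), or 1.21-fold lower, had the smallest p of the 11 (unadjusted 0.0515) and did not pass (limma adjusted p = 0.268). Its 95% interval ran from −0.54 to 0.002. Without wild type replicate 5 the change was −0.17 (adjusted p = 0.521), over 1.5 times smaller.

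The other probe sets of Ece1 varied more among wild type arrays than between genotypes. Probe set 1441423_at stood at 8.19, 7.24, 6.40 and 7.92 on the wild type arrays, which spans both sides of the knockout values of 7.07, 7.22, 7.30, 7.24 and 6.85. Its change was −0.30 (SE 0.32, limma adjusted p = 0.635), at −0.65 without wild type replicate 4 (adjusted p = 0.208), −0.050 without wild type replicate 1 (adjusted p = 0.936) and −0.14 without wild type replicate 5 (adjusted p = 0.876). Probe set 1434177_at, near the floor, differed by −0.010 (SE 0.15), and by −0.074 (SE 0.16) without wild type replicate 3. RefSeq lists 4 starts for Ece1, whose isoforms differ at their N termini, and which of them each probe set reads was not settled here.

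Ece2, a relative of Ece1 that works at acidic pH and is best known from neural tissue, gave 2 readings that did not move together. Probe set 1423358_at read 6.64 ± 0.14 (SD, n = 4) and 6.72 ± 0.077 (SD, n = 5), a change of 0.083 (SE 0.078, limma adjusted p = 0.595), and of 0.025 (SE 0.073) without wild type replicate 3. Probe set 1424561_at stood at 4.74, 6.40, 4.58 and 5.29 on wild type replicates 1, 3, 4 and 5 and at 5.41, 4.99, 5.63, 5.09 and 5.22 on knockout replicates 1 to 5. Its highest array was wild type replicate 3, the array with most neuronal transcript. Other arrays ranked differently. Wild type replicate 4, lowest here at 4.58, had a neuronal marker mean of 7.74, and knockout replicate 3, next highest at 5.63, had one of 5.54. The part of nerve in these values was not tested. The change was 0.016 (SE 0.33, limma adjusted p = 0.984), and 0.40 (SE 0.19, adjusted p = 0.369) without wild type replicate 3. The RefSeq entry of Ece2 carries a read-through name with the methyltransferase gene Eef1akmt4 among its synonyms, so the transcript behind each probe set is uncertain.

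The spread within each genotype was also compared, with no test. The SD was larger among wild type than among knockout arrays for 11 of the 11 tested probe sets, where this held for 62.2% of all 26504. Without wild type replicate 3 it held for 8 of the 11 and for 51.5% of all. Ece1 1441423_at was the widest case of its gene, with an SD of 0.80 (n = 4) against 0.18 (n = 5).

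**Figure D3:**
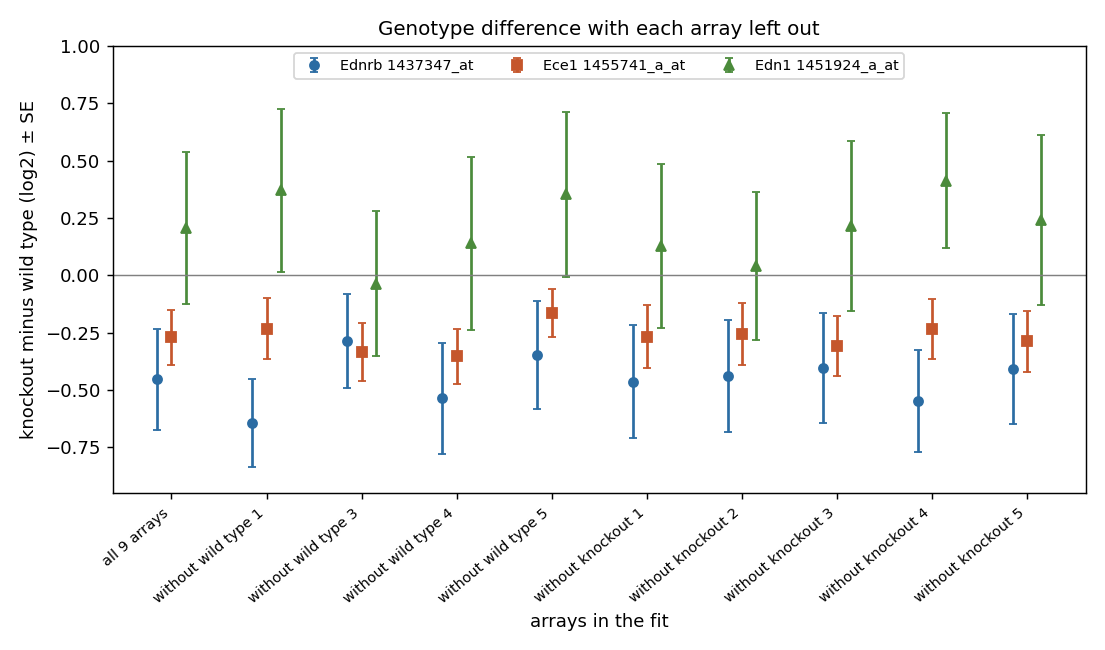
Knockout minus wild type difference (vertical axis, log2, ± SE of the moderated fit) of the brightest probe set of Ednrb, Ece1 and Edn1, with all 9 arrays and with each array left out in turn (horizontal axis). Ednrb runs from −0.64 to −0.29 and Ece1 from −0.35 to −0.17, while Edn1 runs from −0.036 to 0.41.

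Markers of endothelium, the cell type that makes Edn1 and holds part of Ece1 and Ednrb, were mostly lower in the knockout mean. Of 12 tested markers 10 lay lower and 2 higher in the knockout, and their median of −0.265 compares with 0.0272 for the 14321 genes. None passed in limma over all named probe sets, and 6 had an unadjusted p under 0.05, all lower, where 6.94% of genes were lower at that p. The list mean was 9.33, 9.27, 8.99 and 9.46 on wild type replicates 1, 3, 4 and 5 and 8.87 to 9.15 on the knockout arrays. Wild type replicates 1 and 5, highest for Ece1 1455741_a_at, were also the 2 highest for Pecam1 (9.37 and 9.35), the junction protein gene of endothelium, and for Vwf (11.82 and 11.85), von Willebrand factor. Other markers ordered the arrays differently: wild type replicate 1 was the lowest wild type array for 3 of the 12 and the highest of all 9 for 1, while wild type replicate 5 was the highest for 6. Wild type replicate 4, the lowest wild type array for Ece1 1455741_a_at, was also the lowest wild type array for 9 of the 12. This order was not particular to endothelium. The fibroblast list mean, at 12.03, 11.93, 11.63 and 12.29 on wild type replicates 1, 3, 4 and 5, ranked the wild type arrays as Ece1 1455741_a_at did. Its knockout values ran from 11.71 to 12.10. The macrophage list mean was likewise lowest on wild type replicate 4 (7.82) and highest on wild type replicate 5 (8.85). Cdh5, vascular cadherin, stood at 8.93, 9.16, 9.14 and 9.28 on wild type replicates 1, 3, 4 and 5 and at 8.70, 8.64, 8.77, 8.96 and 8.85 on knockout replicates 1 to 5. Its lowest wild type array thus lay below knockout replicate 4, and the difference was −0.34 (SE 0.092, limma adjusted p = 0.134). It passed without wild type replicate 1, at −0.41 (adjusted p = 0.0342), where 1673 of all 26504 probe sets passed against 21 with all arrays. In that fit 1 smooth muscle, 1 adipocyte and 1 brown adipocyte marker passed as well. Without wild type replicate 5 the count of endothelial markers at an unadjusted p under 0.05 was 2 in place of 6. The share of all tested probe sets at that p fell as well, from 18.9% to 12.9%. The part of endothelial content in the Ece1 and Ednrb values was not tested.

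Schwann cells and melanocytes, which can carry Ednrb, were followed by their markers. Of 7 Schwann cell markers 5 were tested (Mbp, S100b, Sox10, Cdh19 and Foxd3), 2 higher and 3 lower in the knockout (4 and 1 without wild type replicate 3), and their mean ranged over 7.71 to 9.80 for wild type and 7.78 to 9.16 for knockout. It was highest on wild type replicate 3 and lowest on wild type replicate 5, the 2 arrays highest for Ednrb 1437347_at and 1426314_at but not for Ednrb 1423594_a_at. Melanocyte markers were low, with list means of 4.89 to 5.68 over the 9 arrays, and their defining enzyme genes Tyr and Tyrp1 did not pass the floor. Cardiomyocyte markers (Myh6, Tnnt2, Nppa, Myl7 and Actc1) varied from 6.26 to 9.24 within wild type and from 6.27 to 8.31 within knockout. All 7 macrophage, all 6 adipocyte and all 6 brown adipocyte markers tested lay lower in the knockout mean, with medians of −0.245, −0.281 and −0.294. Of these lists 0 markers passed in limma, and 0, 1 and 2 had an unadjusted p under 0.05, where 6.94% of genes were lower at that p. The macrophage median was −0.0728 without wild type replicate 5, and the adipocyte medians were −0.129 and −0.182 without knockout replicate 5. The brown adipocyte median was −0.179 without wild type replicate 3. Smooth muscle markers were 6 higher and 2 lower (median 0.0586), with 4 at an unadjusted p under 0.05, where 19.1% of genes were. Of these 4, 3 were higher and 1 was lower. The count at that p was 0 without wild type replicate 5 or without knockout replicate 1, 2 or 3. In those fits 12.9% to 16.8% of all tested probe sets had such a p. Fibroblast markers were 3 higher and 4 lower (−0.031, and 0.0783 without wild type replicate 5). All 3 mesothelial markers tested lay higher (0.493), as did all 4 of skeletal muscle (0.86, and −0.0362 without knockout replicate 3). With all arrays none of these passed in limma. The part of these cell types in the members' values was not tested.

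**Figure D4:**
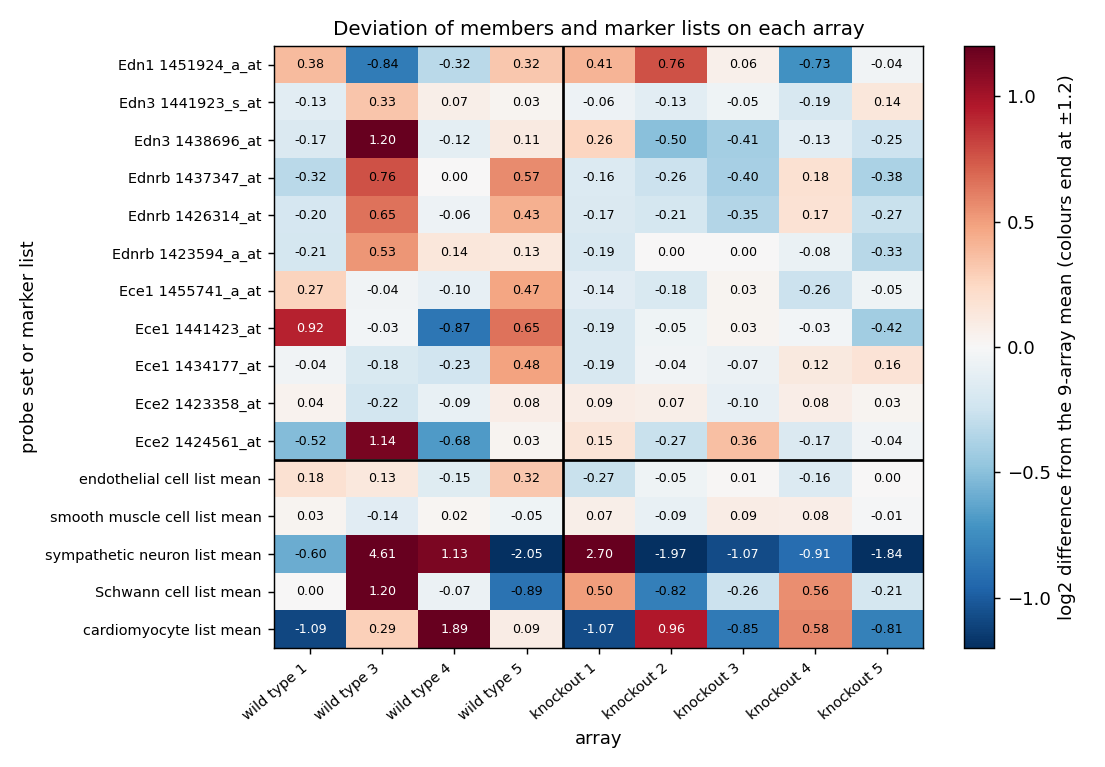
Difference of each reading from its own mean over the 9 arrays (numbers and colour, log2), with arrays in columns, 4 wild type to the left of the vertical line and 5 knockout to the right, members above and marker list means below the horizontal line. Wild type replicate 3 is high for Ednrb, for Edn3 1438696_at, for Ece2 1424561_at and for neuronal markers (4.61) and low for Edn1 (−0.84).

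Genes that process or clear endothelins were spread around 0. Of 8 listed 7 were tested, 3 higher and 4 lower, with a median of −0.0523 (−0.0211 without wild type replicate 3), and 0 passed in limma; 2 had an unadjusted p under 0.05, where 19.1% of genes did. Mme, the gene of neprilysin, which degrades endothelins and natriuretic peptides, stood at 9.43 ± 0.23 (SD, n = 4) and 8.96 ± 0.27 (SD, n = 5), a difference of −0.47 (SE 0.15, adjusted p = 0.166). Ctsa, the gene of cathepsin A, a carboxypeptidase that can inactivate endothelin-1, stood at 0.25 (SE 0.085, adjusted p = 0.174). It passed without wild type replicate 1, at 0.33 (adjusted p = 0.0374), where 1673 of all 26504 probe sets passed. Pcsk5, a proprotein convertase, stood at 0.12 (SE 0.089). Furin, which makes the initial cut, stood at −0.052 (SE 0.053).

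Downstream of the receptors, 28 of 33 listed signalling genes were tested, 12 higher and 16 lower, with a median of −0.0232. None passed in limma, and 4 had an unadjusted p under 0.05, a smaller share than the 19.1% of all genes. Prkce, a calcium-independent protein kinase C, stood at 9.25 ± 0.12 (SD, n = 4) and 8.84 ± 0.15 (SD, n = 5), a difference of −0.41 (SE 0.094, adjusted p = 0.111). Itpr2, a receptor for inositol trisphosphate that releases stored calcium, stood at −0.32 (SE 0.11, adjusted p = 0.167) and at −0.21 without wild type replicate 3, and Trpc1, a cation channel subunit, at −0.27 (SE 0.095, adjusted p = 0.191). Gnaq and Gna11, the G protein subunits that couple endothelin receptors to phospholipase C, stood at −0.034 (SE 0.064) and 0.10 (SE 0.072). The list mean stayed between 10.09 and 10.17 on all 9 arrays.

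Neural crest partners and developmental targets of endothelin signals gave 6 higher and 5 lower among 11 tested of 14 listed, with a median of 0.0291 and 0 past the test in limma; 1 had an unadjusted p under 0.05, where 19.1% of genes did. The sign of that median turned without wild type replicate 1 (−0.0806), without knockout replicate 2 (−0.00715) and with the mean over the probe sets of a gene (−0.00939). Mef2c, a MADS-box factor required downstream of endothelin-1 in facial development, stood at 0.25 (SE 0.080, adjusted p = 0.163) and Mitf, the melanocyte master regulator, at 0.10 (SE 0.073). Ret, the receptor of the glial cell line-derived neurotrophic factor, which acts beside Ednrb in enteric neurons, stood at −0.83 (SE 0.69, adjusted p = 0.545), with an SD of 1.38 among wild type arrays. Its value on wild type replicate 3, the array with most neuronal transcript, was 10.70 against 7.72 to 8.77 on the other wild type arrays, and without it the difference was −0.18 (adjusted p = 0.908).

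The genes most like each member were ranked by Pearson r of deviations from genotype means over the 9 arrays, among 14320 others. Entpd7, Rab32 and 4931414P19Rik followed Edn1 (r 0.969, 0.950 and 0.948). Spint1, Slc6a4 and Tbx20 followed Ednrb (r 0.980, 0.965 and 0.959), and Clec11a, Trgv1 and Cpxm2 followed Ece1 (r 0.973, 0.967 and 0.965). An r over 0.9 was reached by 14, 24 and 52 genes. All points share the same 9 RNA samples, and the names are the highest of many correlations, so they are a description.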

How the data were processed

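The deposited log2 values came from the authors' GCRMA run (per the submitters' processing notes), a method that subtracts a sequence-based background, normalizes between arrays and summarises each probe set; its version is not given in the sources used here. The log2 scale was read from the values. 10 samples are listed; the column of wild type replicate 2 is empty, so 9 arrays were used. Of 45101 probe sets, 34945 carry 1 symbol and 932 several. A probe set was tested if it exceeded 4 on at least 4 arrays, which left 26504 (14321 genes; in gene lists a gene was its brightest probe set). The genotype test was limma 3.58.1 under R 4.3.3 (a model of 2 groups with no covariate and a moderated variance), with Benjamini-Hochberg adjustment over all tested probe sets and a threshold of 0.05. The procedure was also run on simulated data with independent noise for each probe set. Those data lack differences shared by many probe sets of an array, so they do not show how it performs here. Changes are knockout minus wild type. The number of arrays limits the precision. The members and lists were chosen with earlier results of these data known. Named were all member probe sets, Ptgds, the 3 members of a pathway list with the smallest p, the leading 3 markers of a cell type and the 3 genes most like Edn1, Ednrb and Ece1; Jun, Fos, Furin, Gnaq, Gna11, Stmn2 and further Schwann cell, melanocyte and cardiomyocyte markers were named after their values were seen. Motif letters were searched in RefSeq windows. Whether replicate numbers pair the arrays is unknown. Same-numbered arrays correlated at −0.269, −0.115, 0.0709 and 0.145 in their deviations from the group means. Arrays also differed in nerve and muscle transcript, so these values cannot exclude a pairing. Alternatives were other normalizations, filters, priors, array weights, 1 row per gene, the replicate block and leaving out each array.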

Additional observations from a re-analysis of the deposited data

Results flagged for a closer look

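Among 28 sets of values (14 probe sets in 2 genotypes), 1 had an array far from the others of its group: Edn3 1421136_at on knockout replicate 5 read 3.40, while the other knockout arrays read 3.08 to 3.09. All these values lie under the floor of 4. A gap just large enough to be flagged is met by chance in about 1 of 20 groups.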

How the results depend on the processing

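The count of member probe sets past an adjusted p of 0.05 (limma) was 0 in all 17 alternatives. At an unadjusted p under 0.05 it ran from 0 to 3 of the 5 to 14 tested. In the fits that left out 1 array, 12.9% to 24.7% of all tested probe sets had an unadjusted p under 0.05. Over all named probe sets the count of 21 past an adjusted p of 0.05 was 8 with 1 row per gene, 66 with trend and robust options and 367 with array weights. It ran from 6 to 1673 when 1 array was left out, being highest (1673) when wild type replicate 1 was dropped, 6 when wild type replicate 4 or knockout replicate 1, 3 or 5 was, and 7 for wild type replicate 5 or knockout replicate 2. With the replicate block, which pairs 4 arrays of each genotype by number, it was 1, and Ednrb 1437347_at stood at −0.44 (adjusted p = 0.490). Whether the numbers pair the arrays is unknown, since correlations of same-numbered arrays, between −0.269 and 0.145, cannot exclude it. The causes were not tested. All 3 Ednrb probe sets, the brighter 2 of Ece1, both tested ones of Edn3 and Ece2 1423358_at kept their sign throughout. Signs turned for Edn1 1451924_a_at without wild type replicate 3 (−0.036), for Ece1 1434177_at without wild type replicate 5 (0.15), knockout replicate 1 (0.036) or 3 (0.0057), and for Ece2 1424561_at without wild type replicate 1 (−0.15) or 4 (−0.21) or knockout replicate 1 (−0.019) or 3 (−0.073), none of which was past the test before or after. Over the fits that left out 1 array, the changes ran from −0.036 to 0.41 for Edn1, from −0.089 to 0.15 for Ece1 1434177_at and from −0.21 to 0.40 for Ece2 1424561_at. With a floor of 6, 5 member probe sets were tested. Signal near background limits Edn2 and Edn3.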
